A study of Mus musculus with 9 samples.

Results

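The stress keratins *Krt6a*, *Krt6b*, *Krt16* and *Krt17* were followed in RNA-seq of whole mouse skin, 4 genes of the 17943 rows in the deposited table. Their rows were found by NCBI gene ID (16687, 16688, 16666 and 16667). Skin was taken from 5 control and 4 *Supt6*-KO mice at day 10 after the last injection. The study's methods describe the controls as *Supt6* fl/fl mice given corn oil and the *Supt6*-KO mice as K14-CreERT; *Supt6* fl/fl mice given tamoxifen. Both groups thus carry the floxed *Supt6* allele, and by that account they differ in the Cre transgene and in the injected agent at once, so that these cannot be told apart. The labels differ on the agent, since their protocol text names tamoxifen for every sample while a treatment is listed for the *Supt6*-KO samples only. The Cre is driven by a keratin 14 promoter, which is active in basal keratinocytes and follicle epithelium, whereas whole skin also holds dermal, immune and other cells in which this promoter is not expected to be active. GEO's labels call the same groups wild-type and *Supt6* knockdown, and injections fell in the first telogen (resting) phase of the hair cycle. Age in weeks and strain are not given for these mice in the sources used here. Libraries held 29627341 to 30967107 estimated counts.

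The labels give the tissue as ear, whereas the study's methods describe dorsal skin. The cartilage genes *Col2a1*, *Acan*, *Col9a1*, *Cnmd* and *Comp* were present in every library, with *Matn1* at 0 or 1 count, with 1474 to 5067 counts of *Col2a1* in the controls and 101 to 140 counts in the *Supt6*-KO mice. The trunk homeobox genes *Hoxc8* and *Hoxc10* had at most 1 and 2 counts in any library, while *Hoxd8* had 110 to 433 counts. As background, the ear pinna has a plate of elastic cartilage, and *Hoxc8* and *Hoxc10* are homeobox genes of the trunk. All 5 cartilage genes tested were called lower in the *Supt6*-KO mice (beside 24.9% of all genes), and the part of this in the results was not tested.

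*Supt6*, which encodes the elongation factor SPT6, served as a check on the labels. Its level was 74.5, 56.6, 63.6, 91.1 and 96.7 CPM (counts scaled to library size by TMM factors) in control mice 1 to 5, and 28.6, 24.1, 21.9 and 28.4 CPM in *Supt6*-KO mice 1 to 4. All *Supt6*-KO mice lay below all controls. It fell by 1.57 on the log2 scale (SE 0.18, adjusted p = 1.29e-05, edgeR).

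Keratins are the intermediate filament proteins of epithelial cells, and each filament is built from pairs of one type I and one type II chain. *Krt6a* and *Krt6b* encode type II chains, and *Krt16* and *Krt17* encode type I chains that pair with them. In resting interfollicular epidermis these 4 are low or absent, whereas hair follicles, nail and palm or sole epidermis carry some of them. After wounding and in hyperproliferative or inflamed epidermis they are switched on in the suprabasal layers, for which they are called stress or wound keratins. Basal keratinocytes carry *Krt5* and *Krt14*, and differentiating suprabasal cells carry *Krt1* and *Krt10*.

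All 4 genes sit on the minus strand in GENCODE M21 (build GRCm38, which is mm10). *Krt6a* (chr15:101689910-101694307, 9 exons) and *Krt6b* (chr15:101676023-101680287, 9 exons) are neighbours in the type II cluster, and *Krt5* follows *Krt6a*. *Krt16* (chr11:100246091-100248902, 8 exons) and *Krt17* (chr11:100256217-100261029, 8 exons) are neighbours in the type I cluster, and *Krt42* follows *Krt17*. The copies are close in sequence, which matters here because reads were assigned between them by estimation. Over 1662 aligned coding bases, *Krt6a* and *Krt6b* were 97.8% identical and differed at 37 bases, with an identical run of up to 280 bases. Over 1285 aligned coding bases *Krt16* and *Krt17* were 78.2% identical, and *Krt16* was closer to *Krt14*, at 86.5%.

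The stretches below show what a read of 100 bases can and cannot separate. They were sought among coding bases only, inside 1 exon of both genes and aligned without gaps, so untranslated bases were not searched. The first lies in exon 1 of both type II genes (*Krt6a* chr15:101694116-101694215 and *Krt6b* chr15:101680091-101680190, minus strand) and is the same in both:
Krt6a and Krt6b: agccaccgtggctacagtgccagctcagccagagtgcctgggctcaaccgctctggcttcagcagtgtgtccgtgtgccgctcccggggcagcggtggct
The next pair is the stretch of 100 coding bases with the most differences between them, also in exon 1 (*Krt6a* chr15:101693826-101693925 and *Krt6b* chr15:101679801-101679900, minus strand), with the 7 differing bases in capitals:
Krt6a: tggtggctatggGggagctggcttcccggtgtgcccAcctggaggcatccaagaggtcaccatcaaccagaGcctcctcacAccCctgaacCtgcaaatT
Krt6b: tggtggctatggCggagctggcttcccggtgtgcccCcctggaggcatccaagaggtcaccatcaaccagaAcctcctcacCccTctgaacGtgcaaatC
For the type I pair even the stretch of 100 coding bases with the fewest differences, in exon 6 of both genes (*Krt16* chr11:100246652-100246751 and *Krt17* chr11:100257475-100257574, minus strand), holds 5 of them, in capitals:
Krt16: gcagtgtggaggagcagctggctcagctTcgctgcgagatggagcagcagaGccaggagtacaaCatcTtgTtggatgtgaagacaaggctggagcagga
Krt17: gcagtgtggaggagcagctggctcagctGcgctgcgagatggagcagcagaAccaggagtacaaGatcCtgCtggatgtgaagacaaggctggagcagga

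Of all windows of 100 bases along the transcript, 29.5% of those of *Krt6a* occur unchanged in *Krt6b* and 30.1% of those of *Krt6b* occur in *Krt6a*. Counting every other gene, the shares are 34.0% for *Krt6a* and 30.6% for *Krt6b*, and 2.3% of the windows of *Krt6a* occur in *Krt5*. For *Krt16*, 21.1% of windows occur in the predicted gene *Gm11597* and 3.14% in *Krt14*. None of the 1452 windows of *Krt17* occurs in another gene. The estimated counts of *Krt6a* and *Krt6b* were not whole numbers in 9 of 9 libraries (tolerance 0.001), as can happen when reads are divided between genes. The division between *Krt6a* and *Krt6b* is therefore uncertain, and their sum is given beside it. The reads were paired, and these windows do not show how far the other read of a pair separates the copies. Counts of *Krt16* and *Krt17* were not whole in 8 of 9 libraries. The source of the fractions was not tested, and *Krt17* shares no window of 100 bases with another gene.

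*Krt6a*, *Krt6b* and *Krt16* rose in *Supt6*-KO skin by 25.98-fold, 290.4-fold and 150.1-fold, from levels that were moderate to low in the controls. Without *Supt6*-KO mouse 4, which was far above the other 3, these folds were 10.4, 131 and 88.9. *Krt17*, the most abundant of the 4 in control skin, was 2.06-fold higher, and was no longer called when *Supt6*-KO mouse 4 was left out. All 4 met the criteria for a higher call (adjusted p under 0.05 and at least 2-fold, edgeR), as did 20.9% of the 16426 genes tested. Changes were broad in this skin, with 45.8% of genes called in one direction or the other.

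*Krt6a* stood at 158, 108, 75.9, 103 and 76.9 CPM in control mice 1 to 5. In *Supt6*-KO mice 1 to 4 it stood at 1296, 616, 1350.0 and 7578 CPM. Every *Supt6*-KO mouse was above every control, a pattern that 28.9% of all genes tested showed, and the lowest *Supt6*-KO value was 3.88 times the highest control on this scale. The group means were 104 ± 33.6 CPM (SD, n = 5) and 2709.9 ± 3262 CPM (SD, n = 4), and the fitted change on the log2 scale was 4.70 (SE 0.67, adjusted p = 7.43e-05, edgeR). By mean CPM the gene went from rank 1515 to rank 68 of all genes.

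*Krt6b* was low in the controls, at 12.3, 12.7, 8.42, 2.87 and 4.02 CPM. It reached 1294, 649, 1246 and 6183 CPM in *Supt6*-KO mice 1 to 4. The lowest *Supt6*-KO value was 51.1 times the highest control. The log2 fold change was 8.18 (SE 0.82, adjusted p = 5.74e-06, edgeR), between means of 8.07 ± 4.56 CPM (SD, n = 5) and 2343 ± 2577 CPM (SD, n = 4). Among the 16426 genes tested it ranked 32 by log2 fold change. Summed with *Krt6a* into 1 row, which does not depend on how reads were divided between them, the log2 fold change was 5.49 (adjusted p = 2.32e-05, edgeR). The sum still depends on windows shared with other genes, such as *Krt5*.

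*Krt16*, the type I chain that pairs with keratin 6, was at 43.4, 31.5, 19.6, 16.4 and 9.19 CPM in the controls. In *Supt6*-KO mice 1 to 4 it was at 2519, 1443, 2466 and 7999.8 CPM, the highest of the 4 genes in each of them. The groups did not overlap. Means were 24.0 ± 13.5 CPM (SD, n = 5) and 3607 ± 2970 CPM (SD, n = 4), and the fitted difference was 7.23 on the log2 scale (SE 0.65, adjusted p = 2.98e-06, edgeR). For *Krt6a*, *Krt6b* and *Krt16*, the two-sided exact permutation test of mean log2 CPM gave p = 0.0159, the smallest that 5 against 4 mice can give.

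*Krt17*, which is also made in the outer root sheath of hair follicles, was at 349, 237, 240.8, 224 and 184 CPM in control mice 1 to 5. It was at 404, 240.8, 314 and 1078 CPM in *Supt6*-KO mice 1 to 4. The groups overlapped, and 2 of 4 *Supt6*-KO mice lay above all controls. Means were 247 ± 61.5 CPM (SD, n = 5) and 509 ± 385 CPM (SD, n = 4), and the fitted difference was 1.04 on the log2 scale (SE 0.38, adjusted p = 0.0289, edgeR), and the two-sided exact permutation test gave p = 0.095. Leaving out *Supt6*-KO mouse 4 brought the difference down to 0.37 (adjusted p = 0.13, edgeR), and leaving out control mouse 2, 3, 4 or 5 put the adjusted p at 0.0532 to 0.0637. With library totals in place of TMM factors it was 0.46 (adjusted p = 0.371), and with both changes its sign turned to -0.39 (adjusted p = 0.138), beside a median of -0.90 over all genes in that fit. Per base of transcript, *Krt17* stood at 452, 267, 281, 299.5 and 282 TPM (read density per base of transcript, scaled to the same total in each library) in the controls and at 192, 88.9, 120.5 and 699.7 TPM in *Supt6*-KO mice 1 to 4, so that on this scale mice 1 to 3 lay below all controls and mouse 4 above. TPM was deposited for the controls and mouse 4, and was computed from the counts for mice 1 to 3. TPM gave smaller differences for the other members as well, with means of 85.1 and 995 for *Krt6a*, 6.41 and 855 for *Krt6b* and 29.8 and 1947 for *Krt16*, and no overlap of the groups. The margin was narrow for *Krt6a*, at 144 TPM in *Supt6*-KO mouse 2 against 130.0 TPM in control mouse 1.

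**Figure D1:**
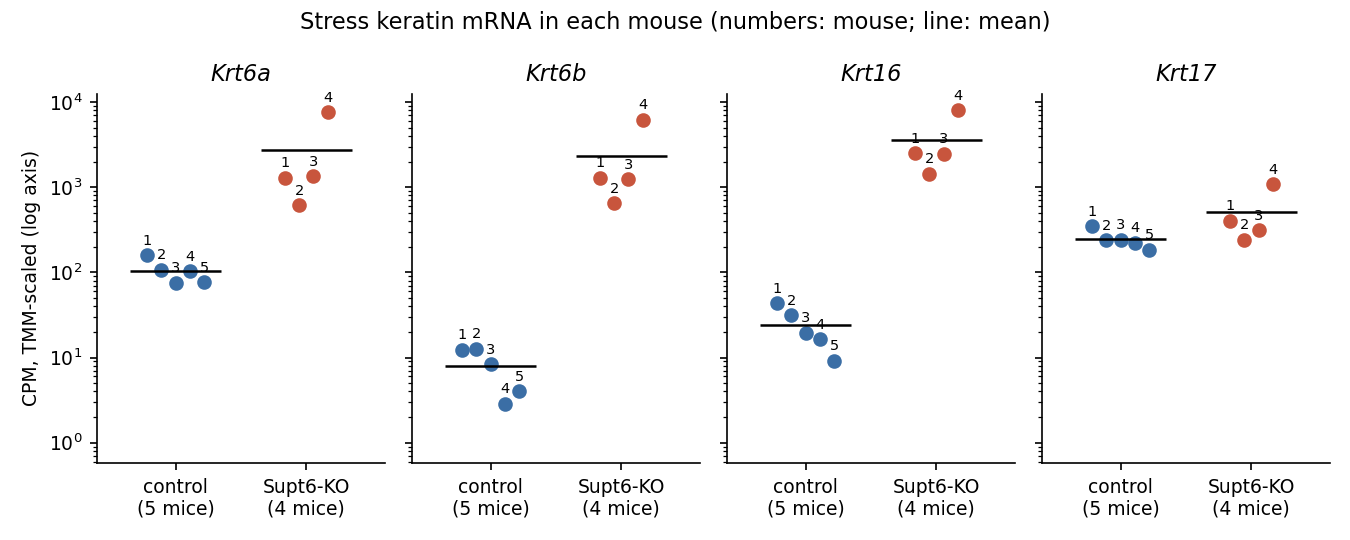
CPM (TMM-scaled, log axis) of the 4 stress keratins in each of 5 control and 4 *Supt6*-KO mice; points are mice, numbers are mouse numbers and lines are group means. *Krt6a*, *Krt6b* and *Krt16* did not overlap between groups, *Krt17* did, and *Supt6*-KO mouse 4 was the highest for all 4 genes.

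*Supt6*-KO mouse 4 stood apart from the other 3. It held 6.97 times the mean of *Supt6*-KO mice 1 to 3 for *Krt6a*, 5.82 times for *Krt6b*, 3.73 times for *Krt16* and 3.37 times for *Krt17*. In this library *Krt16*, *Krt6a* and *Krt6b* ranked 6, 8 and 10 among all genes by counts. Without it, the log2 fold changes were 3.37 for *Krt6a* (adjusted p = 2.49e-06), 7.04 for *Krt6b* (adjusted p = 8.48e-07) and 6.47 for *Krt16* (adjusted p = 8.85e-07, all edgeR), so these 3 were called with and without it.

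Marker genes of several cell types also set this mouse apart. The summed level of 6 dividing-cell genes (*Mki67*, *Top2a*, *Birc5*, *Ccnb1*, *Cdk1* and *Pclaf*, with *Top2a* the most abundant and none at 0 throughout) was 183, 204, 322 and 796 CPM in *Supt6*-KO mice 1 to 4, against 92.7 to 169 CPM in the controls. Of these 6 genes 4 were called higher (*Birc5*, *Ccnb1*, *Cdk1* and *Pclaf*), beside 20.9% of all genes. The 6 basal keratinocyte genes summed to 8058, 5411, 6519 and 13866 CPM in *Supt6*-KO mice 1 to 4 and to 9523 to 10554 CPM in the controls, with *Krt14* the most abundant. Of these basal genes 3 of 6 (*Col17a1*, *Itgb4* and *Trp63*) were called lower, beside 24.9% of all genes. The 6 suprabasal genes, led by *Krt10*, summed to 42689, 41058, 40204 and 20565 CPM in *Supt6*-KO mice 1 to 4 and to 20094 to 21934 CPM in the controls. Among them 3 of 6 (*Krt1*, *Ivl* and *Krtdap*) were called higher, beside 20.9% of all genes. Mouse 4 thus had the most dividing-cell and basal transcripts of the 4 *Supt6*-KO mice and the fewest suprabasal ones, also per library total. Against the controls the picture depends on the scaling. Per library total, the suprabasal sums were 33331, 27664, 28385 and 18710 CPM in *Supt6*-KO mice 1 to 4 and 24619 to 27173 CPM in controls, so that mouse 4 lay below every control. The basal sum of mouse 4 (12616 CPM) was then within the controls (11668 to 13075 CPM), and so were the dividing-cell sums of mice 1 and 2 (143 and 137 CPM, against 111 to 223 CPM). The part of these in the level of the stress keratins was not tested, and in bulk skin fewer cells of a type and less RNA per cell cannot be told apart.

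The 6 neutrophil genes summed to 4560, 5157, 6395 and 2512 CPM in *Supt6*-KO mice 1 to 4 and to 13.9 to 42.7 CPM in the controls. Among them 5 of 6 were called higher (*Ly6g*, *Cxcr2*, *Csf3r*, *S100a8* and *S100a9*) and *Mpo* lower, beside 20.9% and 24.9% of all genes. In the *Supt6*-KO mice most of the sum was *S100a8* and *S100a9*, which stressed keratinocytes make as well and which are also on the wound-edge list given further on. The neutrophil surface gene *Ly6g* had 4, 0, 15 and 1 counts in *Supt6*-KO mice 1 to 4, and *Mpo*, a granule enzyme of young neutrophils, had 1, 0, 0 and 0. On this list mouse 4 was the lowest of the *Supt6*-KO mice, while it was the highest for each stress keratin. Other skin structures differed between the groups too. The 6 sebaceous gland genes, led by *Scd1*, summed to 6143 to 7458 CPM in controls and 1009 to 1726 CPM in *Supt6*-KO mice (5 of 6 called lower, beside 24.9% of all genes), and the 6 skeletal muscle genes, led by *Acta1*, to 3461 to 4719 CPM and 819 to 1367 CPM (5 of 6 called lower, beside the same share). Their part in the stress keratin results was not tested.

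**Figure D2:**
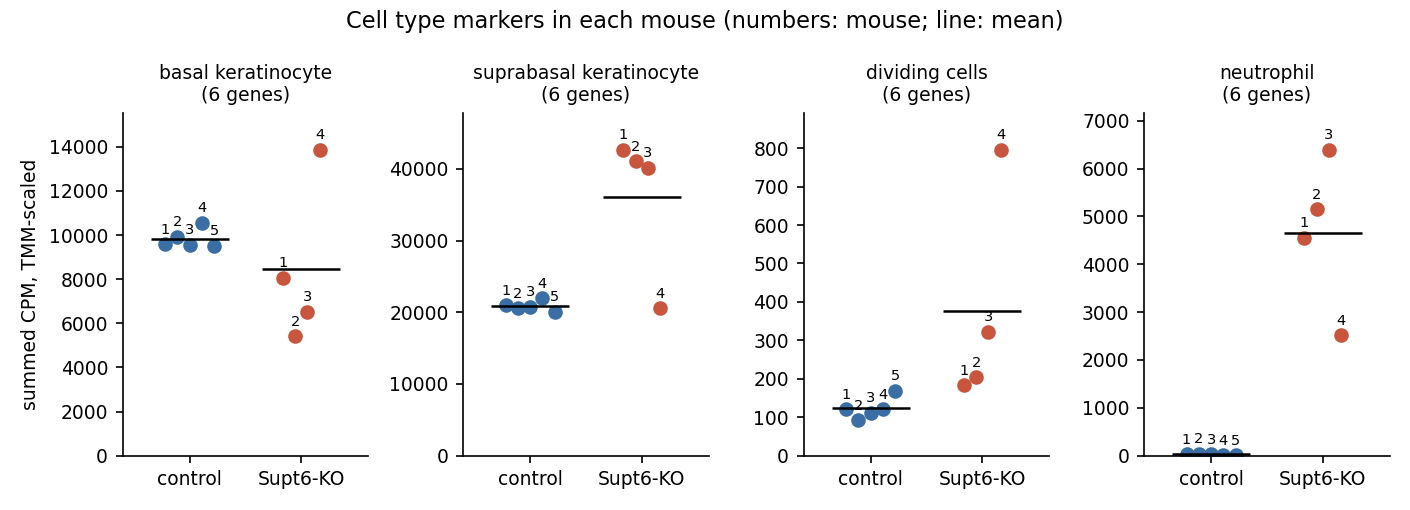
Summed CPM (TMM-scaled) of 4 marker lists of 6 genes each in every mouse; points are mice, numbers are mouse numbers and lines are group means. *Supt6*-KO mouse 4 was highest on this scale for basal genes (13866 CPM, within the controls per library total) and for dividing-cell genes (796 CPM) and lowest of its group for suprabasal (20565 CPM) and neutrophil genes (2512 CPM).

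Ratios between keratins within a library do not depend on how libraries are scaled, and 14 of them were compared between the groups as log2 ratios of estimated counts with a pseudocount of 0.5. Ratios of single mice are given without the pseudocount, and intervals use the spread pooled over both groups. For 13 of the 14 the difference was at the smallest p that the two-sided exact permutation test allows (p = 0.0159, 0.0171 after Benjamini-Hochberg adjustment over 14). *Krt6a* to *Krt6b* was 12.9, 8.47, 9.01, 35.9 and 19.1 in the controls and 1.00, 0.948, 1.08 and 1.23 in *Supt6*-KO mice 1 to 4. The type II pair thus went from a large excess of *Krt6a* to near parity, with a difference in log2 ratio of -3.79 (95% interval -4.83 to -2.74). This ratio is the one most exposed to how reads were divided between the copies.

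*Krt16* to *Krt17* was 0.124, 0.133, 0.0815, 0.0733 and 0.04999 in the controls and 6.24, 5.99, 7.85 and 7.42 in *Supt6*-KO mice. *Krt17* exceeded *Krt16* in every control and *Krt16* exceeded *Krt17* in every *Supt6*-KO mouse, with a difference in log2 ratio of 6.30 (95% interval 5.57 to 7.02). In *Supt6*-KO mouse 4 this ratio was within the range of the other 3, although both genes were at their highest there. *Krt6b* to *Krt16* moved least among the 6 member pairs, by 0.74 (95% interval -0.02 to 1.51), and its groups did not overlap.

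Against the basal keratins of the same library, *Krt16* over *Krt14* went from 0.0131, 0.00827, 0.00592, 0.00471 and 0.00309 in the controls to 0.533, 0.464, 0.623 and 0.832 in *Supt6*-KO mice. *Krt6a* over *Krt14* rose 11.6-fold and *Krt6b* over *Krt14* rose 160.6-fold in the same comparison. *Krt17* over *Krt14* was 0.105, 0.0623, 0.0726, 0.0642 and 0.0619 in the controls and 0.0853, 0.0773, 0.0793 and 0.112 in *Supt6*-KO mice. Its difference of 0.29 on the log2 scale (95% interval -0.18 to 0.75) did not pass the two-sided exact permutation test (p = 0.19). Against *Krt5*, *Krt17* rose 3.34-fold (95% interval of the log2 difference 1.05 to 2.44). *Krt5* itself was 4631 ± 202 CPM (SD, n = 5) in controls and 2544 ± 848 CPM (SD, n = 4) in *Supt6*-KO mice, and *Krt14* was 3379 ± 304 and 5355 ± 2915 CPM. The direction for *Krt14* depends on the scale, since its mean TPM was 3991 in controls and 2572 in *Supt6*-KO mice.

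**Figure D3:**
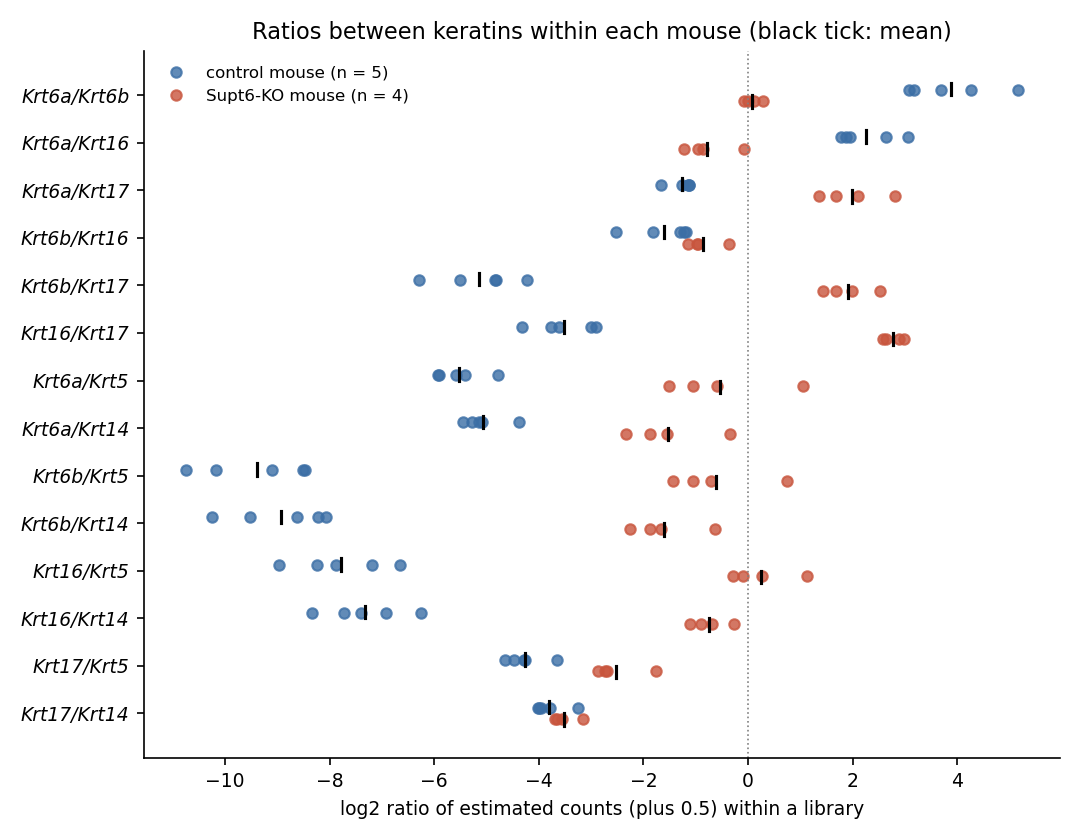
Log2 ratio of estimated counts (pseudocount 0.5) between keratins within each library for 14 ratios; blue points are 5 control mice, red points are 4 *Supt6*-KO mice and black ticks are group means. Groups are apart for 13 ratios and overlap for *Krt17*/*Krt14*.

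Among 49 keratins with a row in the table, the 4 stress keratins took 1.37%, 1.03%, 0.91%, 0.799% and 0.702% of keratin counts in control mice 1 to 5. They took 11.7%, 7.51%, 12.8% and 44.0% in *Supt6*-KO mice 1 to 4. The means were 0.962% ± 0.259 (SD, n = 5) and 19.0% ± 16.8 (SD, n = 4), or 10.7% ± 2.80 (SD, n = 3) without mouse 4. The 95% Wilson interval of a share was at most 0.0809 percentage points to either side, which covers counting error only. All keratins together made up 4.95% ± 0.362 of a control library (SD, n = 5) and 3.50% ± 0.923 of a *Supt6*-KO library (SD, n = 4). No *Supt6*-KO library held a larger keratin total than the highest control.

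The order of the 4 genes was read per base of transcript, so that a longer mRNA does not count for more. In each of the 5 controls it was *Krt17*, *Krt6a*, *Krt16* and *Krt6b*, with *Krt17* at 68.8% to 76.7% of the 4 and *Krt6b* at 0.596% to 2.36%. In each of the 4 *Supt6*-KO mice *Krt16* came first, at 44.5% to 57.7%, and *Krt17* last, at 6.07% to 9.73%. *Krt6a* (15.8% to 27.1%) and *Krt6b* (16.8% to 22.3%) lay between them, and their order differed from mouse to mouse. The type II members were 0.263 ± 0.0324 times the type I members in the controls (SD, n = 5) and 0.658 ± 0.218 times in *Supt6*-KO mice (SD, n = 4).

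**Figure D4:**
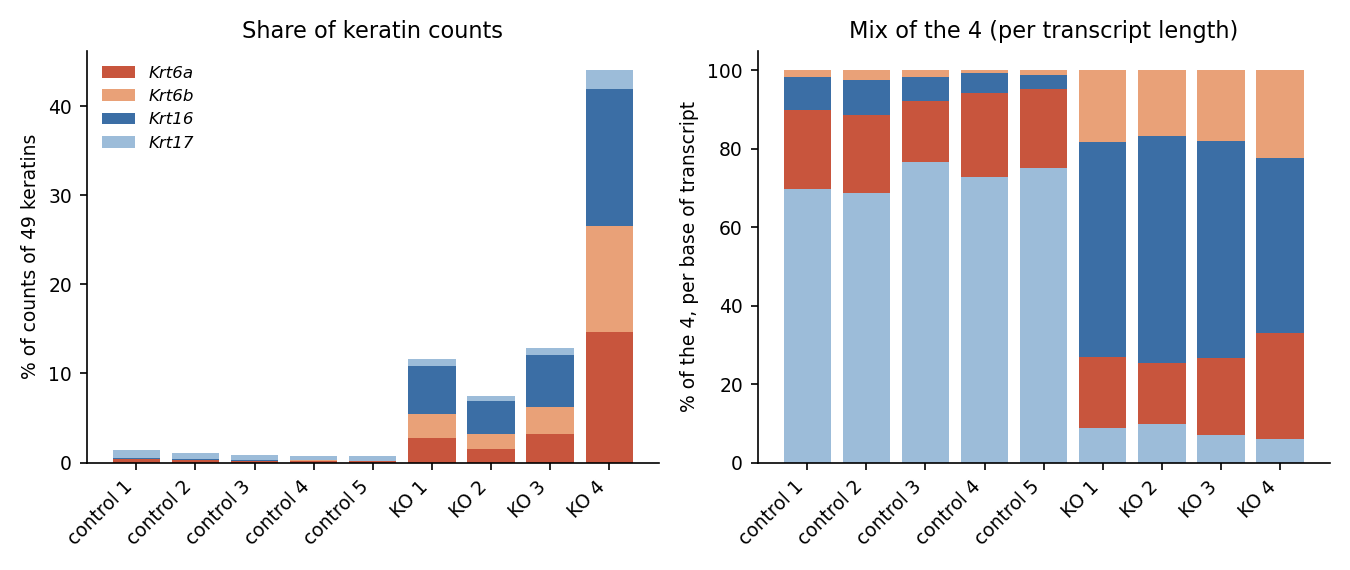
Left, the 4 stress keratins as a percentage of the estimated counts of 49 keratins in each mouse; right, the percentage of each of the 4 per base of transcript. The share on the left reached 44.0% in *Supt6*-KO mouse 4, and the largest segment on the right changed from *Krt17* in controls to *Krt16* in *Supt6*-KO mice.

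Other keratins changed in both directions. Of 12 other type II epithelial keratins tested, 2 were called higher and 6 lower (20.9% and 24.9% of all genes), with a median log2 fold change of -1.13 beside -0.07 over all genes. *Krt1*, the suprabasal partner of keratin 10, rose by 3.65 (SE 0.24, adjusted p = 5.28e-07, edgeR). *Krt2*, a keratin of late suprabasal cells, fell by 6.35, and *Krt77* fell by 5.65 on the log2 scale. *Krt8*, *Krt75*, *Krt79* and *Krt80* were called lower too, among 24.9% of all genes tested. *Krt75* belongs to the companion layer of the hair follicle, where *Krt6a* is also made, and stood at 25.3 ± 20.9 CPM in controls (SD, n = 5) against 8.73 ± 3.20 CPM (SD, n = 4). The groups overlapped, and control mouse 1 stood highest at 60.1 CPM. *Krt75* was not called without that mouse (adjusted p = 0.0504) or without *Supt6*-KO mouse 2 (0.0521) or 3 (0.0619, all adjusted p from edgeR). *Krt76*, a keratin of the oral epithelium, had 0 counts in each control and 1, 4, 5 and 19 counts in *Supt6*-KO mice 1 to 4.

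Of 12 other type I epithelial keratins, 3 were called higher and 4 lower, with a median of 0.21 (-0.02 without *Supt6*-KO mouse 4). These counts are near the shares of all genes, 20.9% higher and 24.9% lower. *Krt42*, next to *Krt17* on chromosome 11, rose by 2.77 (SE 0.73, adjusted p = 0.00493, edgeR), but from only 0.302 ± 0.133 to 2.05 ± 2.75 CPM, and *Supt6*-KO mouse 4 was 9.13 times the mean of the other 3 (1.15 on the log2 scale without it). With DESeq2 *Krt42* (2.84) had no adjusted p and was not called. *Krt12* and *Krt13*, known from cornea and oral mucosa, were called higher at mean levels of 3.18 and 3.55 CPM in *Supt6*-KO mice. For *Krt13* (1.02) the groups overlapped, and it fell short of 2-fold with library totals (0.27), upper-quartile scaling (0.94), at least 10 counts in every library (0.96) or the replicate block (0.94), and without control mouse 2 or 3 or *Supt6*-KO mouse 2 or 3 (lowest 0.63). *Krt4*, its type II partner in oral mucosa, was not called (0.58). *Krt15*, a keratin of basal and bulge cells, fell by 2.65, and *Krt24* fell by 5.53 on the log2 scale. *Krt19* and *Krt20* were called lower at under 1 CPM in either group, *Krt20* not with the replicate block (adjusted p = 0.0593, edgeR). *Krt10* and *Krt14* were not called.

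Hair keratins were lower on average but varied widely among the controls. Of 21 keratins of the hair shaft and inner root sheath tested, 0 were called higher and 20 lower, with a median of -7.86, beside 24.9% of all genes called lower. Those lower were *Krt25*, *Krt26*, *Krt27*, *Krt28*, *Krt31*, *Krt32*, *Krt33a*, *Krt33b*, *Krt34*, *Krt35*, *Krt36*, *Krt39*, *Krt40*, *Krt71*, *Krt72*, *Krt73*, *Krt81*, *Krt83*, *Krt84* and *Krt86*, and *Krt82* was not called. *Krt36* lost its call with DESeq2 and without control mouse 1 or 3 or *Supt6*-KO mouse 1, 2 or 3. *Krt71*, a keratin of the inner root sheath, had 24564, 1946, 7737, 4970 and 27 counts in control mice 1 to 5 and 12, 11, 6 and 18 counts in *Supt6*-KO mice 1 to 4, so that control mouse 5 was close to the *Supt6*-KO mice. For 16 of the 21 the groups overlapped, and for 5 all *Supt6*-KO values lay under the lowest control, a pattern that 31.8% of all genes showed. The median was -6.57 without control mouse 1, and -2.01 over the 3 genes with at least 10 counts in every library. The 8 outer root sheath, companion layer and bulge markers, led by *Krt15*, summed to 3490 ± 320 CPM in controls (SD, n = 5) and 1098 ± 218 CPM in *Supt6*-KO mice (SD, n = 4), with 6 of 8 called lower. *Krt17* and *Krt6a* are made in those follicle layers as well, and the part of this in their levels was not tested.

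**Figure D5:**
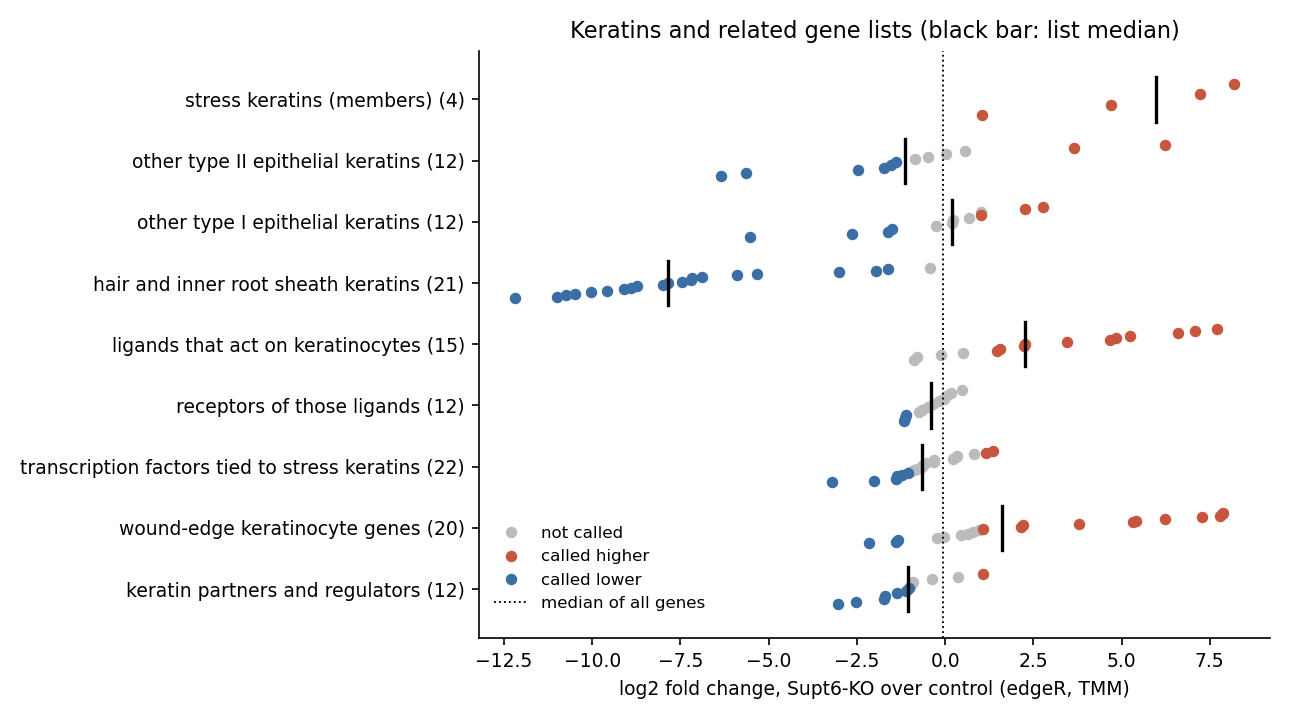
Log2 fold change (*Supt6*-KO over control, edgeR with TMM factors) of each gene in 9 lists; red and blue points were called higher and lower, grey points were not called, black bars are list medians and the dotted line is the median of all genes (-0.07). The stress keratins and the ligands lie to the right and the hair keratins to the left; values of genes with a group at 0 counts (*Krt76* and *Krt33b*) are fitted and bound nothing.

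Stress keratins are known to respond to epidermal growth factor (EGF) family ligands and to cytokines. Of 15 such ligands tested, 11 were called higher and 0 lower, with a median of 2.26, beside 20.9% and 24.9% of all genes. *Il24*, *Il1b* and *Il19* had the largest log2 fold changes (7.70, 7.09 and 6.61). Without *Supt6*-KO mouse 4 these were 5.45, 7.14 and 5.66, so that *Il1b* came first. With DESeq2, 9 of the 15 ligands were called higher. There *Il24* (8.01) and *Epgn* (4.91 on the log2 scale) had no adjusted p and were not called. *Il1b*, an inflammatory cytokine, was at 51.4, 62.0, 126.0 and 67.0 CPM in *Supt6*-KO mice 1 to 4 and below 1 CPM in all controls. *Il24*, a cytokine of the interleukin-20 family, had 26, 25, 23 and 492 counts in *Supt6*-KO mice 1 to 4 against 3, 0, 0, 0 and 1 in the controls. *Il19* of the same family was at 9.74, 7.05, 5.95 and 35.6 CPM in *Supt6*-KO mice. Mouse 4 was the highest for *Il24* and *Il19*, as for the stress keratins.

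Of the 7 EGF receptor ligands on the list, 4 were called higher and 0 lower, against the same shares of all genes (20.9% and 24.9%). *Epgn* (epigen) was at 24.6, 26.8, 46.5 and 332.5 CPM in *Supt6*-KO mice 1 to 4, *Areg* (amphiregulin) at 8.77, 8.44, 9.19 and 25.5 CPM, and *Hbegf* at 22.6, 19.4, 29.5 and 67.0 CPM. These 3 were highest in mouse 4, and without it *Epgn* went from 4.84 to 3.12 on the log2 scale. *Ereg* (epiregulin), at 346, 240.8, 174 and 124 CPM, was lowest there. For these 4 the groups did not overlap, as for 28.9% of all genes in that direction. *Tgfa* (-0.12), *Btc* (-0.87) and *Egf* (-0.79 on the log2 scale) were not called. *Il1a*, an interleukin-1 cytokine that was called higher, was at 50.3, 51.0, 32.9 and 21.5 CPM and likewise lowest in mouse 4. With library totals *Ereg* (0.83) and *Il1a* (0.75 on the log2 scale) fell short of 2-fold. Of 12 receptors of these ligands, 0 were called higher and 3 lower (*Egfr* -1.12, *Erbb2* -1.18 and *Il6st* -1.12), with a median of -0.41. The count lower is near the 24.9% of all genes. With library totals it was 7, where 6802 of the 16426 genes tested were called lower.

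Of 22 transcription factors tied to stress keratin genes, 2 were called higher and 7 lower, with a median of -0.65, beside 20.9% and 24.9% of all genes. *Nfe2l2*, which encodes the oxidative stress regulator NRF2, rose by 1.35 (SE 0.15, adjusted p = 1.43e-05, edgeR), from 60.4 ± 1.99 CPM to 115, 136, 159.6 and 205 CPM in *Supt6*-KO mice 1 to 4. *Nfkbiz*, an NF-κB co-regulator, rose by 1.17, but by 0.99 without *Supt6*-KO mouse 2, which is short of 2-fold. Those lower were *Fosb* (-3.22), *Gli2* (-2.02), *Gli1* (-1.39), *Rela* (-1.36), *Nfkb2* (-1.35), *Trp63* (-1.21) and *Jund* (-1.05, but -0.93 without *Supt6*-KO mouse 3 and -0.99 with DESeq2). *Stat3* stood at -0.65 and *Fosl1* at 0.35, and neither was called. With library totals, which lower the median of all genes from -0.07 to -0.76, *Nfe2l2* and *Nfkbiz* no longer met the criteria (0 higher, 16 lower), and the ligands were 9 higher and 2 lower. In that fit 1470 of the 16426 genes tested were called higher and 6802 lower.

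Of 20 genes known from keratinocytes at the wound edge, 11 were called higher and 3 lower, with a median of 1.61, beside 20.9% and 24.9% of all genes. *S100a8*, *Sprr1b* and *S100a9* had the largest log2 fold changes (7.87, 7.85 and 7.78). *Sprr1b*, a cross-linked envelope protein of stressed keratinocytes, was at 1075, 456, 784 and 2229 CPM in *Supt6*-KO mice 1 to 4, and mouse 2 was lowest and mouse 4 highest, as for *Krt16*. The adhesion genes *Itga5*, *Lama3* and *Lamb3* were the 3 called lower. Of 12 partners and regulators of keratin filaments, 1 was called higher and 7 lower, with a median of -1.06, beside 20.9% and 24.9% of all genes. With library totals 0 were called higher and 10 lower, where 1470 of the 16426 genes tested were called higher and 6802 lower. The linker proteins *Plec* (-3.02), *Eppk1* (-2.54) and *Evpl* (-1.74), which tie keratin filaments to junctions or to each other, fell most among them, and *Sfn*, which encodes the 14-3-3 sigma protein that binds keratin 17, rose by 1.08. It fell short of 2-fold without *Supt6*-KO mouse 4 (0.78), without control mouse 5 (0.96), with upper-quartile scaling (0.99), with library totals (0.45) and with the replicate block (0.88). Without *Supt6*-KO mouse 4 the counts called higher and lower were 11 and 0 of the ligands, 0 and 3 of the receptors, 2 and 8 of the transcription factors, 11 and 3 of the wound-edge genes and 0 and 8 of the partners. They were 2 and 7 of the other type II keratins, 3 and 4 of the other type I keratins and 0 and 20 of the hair keratins.

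Genes with the most similar pattern were sought among 13564 genes with a mean of at least 1 CPM, by Pearson r of the deviations of log2 CPM from the group means over the 9 mice. These values describe the spread within groups, which mouse 4 dominates, and the points share library and scaling. For *Krt16* the closest gene was *Klk6*, which encodes a skin protease (r = 0.976, and 0.958 without mouse 4), followed by *Lap3* (0.966) and *Homer1* (0.966). For *Krt6a* they were *Srp68* (0.990), *Xpot* (0.988) and *Plet1* (0.986), for *Krt6b* *Pdia3* (0.978), *Sap18* (0.973) and *Dars* (0.958), and for *Krt17* *Ctps* (0.984), *Crnkl1* (0.980) and *Ppp2r1b* (0.978). *Klk6* was at 7.15 to 17.4 CPM in controls and at 469, 401, 596 and 1169 CPM in *Supt6*-KO mice 1 to 4. Between the members, r was 0.965 for *Krt6a* and *Krt17* (0.844 without mouse 4) and 0.832 for *Krt6a* and *Krt6b* (0.573 without mouse 4). The neighbouring near-identical copies thus had the lowest r, close to the 0.863 of *Krt6a* and *Krt16*. Their r is also the one most exposed to how reads were divided between the copies.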

How the data were processed

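Whole-skin RNA of 9 mice was sequenced by the authors as paired reads of 100 bases, aligned to mm10 with Bowtie2 2.3.4.3 and quantified with RSEM 1.3.1 (the submitters' notes also name HISAT and DESeq2 1.4.5, the latter with no role here). The deposited table holds estimated counts for all 9 mice and TPM for the 5 controls and *Supt6*-KO mouse 4. TPM of the other 3 mice was computed from counts and the per-gene ratio of count to TPM, and differed from deposited values by at most 2.9% for the members where both exist. Gene IDs were matched to RefSeq names (25 of 17943 unmatched).

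Estimated counts were rounded. Genes with at least 10 counts over the 9 mice were tested with edgeR 4.0.16 (quasi-likelihood, TMM, 2 groups, no covariate, Benjamini-Hochberg over 16426 genes) in R 4.3.3. A call needs an adjusted p under 0.05 and at least 2-fold. Depth was 29627341 to 30967107 counts per mouse, and TMM factors were 1.20 to 1.31 in controls and 0.674 to 0.910 in *Supt6*-KO mice. The script was tested on simulated data. Single values used two-sided exact permutation tests (scipy 1.17.1). Replicates are mice, and p-values measure the spread between them.

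The members and gene lists were chosen with earlier results of these data known. Named were the 4 members and *Supt6*, all other keratins called, the 3 called genes with the largest log2 fold change of each list (at least 1 CPM), the 3 genes most like each member, and genomic neighbours. Other list genes given with values were chosen after their values were seen. Likeness over all 9 mice without removing group means was computed as well but is not given, since the groups form separate clusters. Sequences are from GENCODE M21 transcripts (GRCm38), aligned with Biopython 1.88. Alternatives were DESeq2 1.42.0, other scalings and filters, a replicate block, summed copies and leaving out each mouse; library totals without *Supt6*-KO mouse 4 was chosen after seeing the data.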

Additional observations from a re-analysis of the deposited data

Results flagged for a closer look

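In 70 groups of values examined (members, ratios, shares and marker sums in the controls and in the *Supt6*-KO mice), 8 held a mouse farther from its group than Dixon's 95% limit, where chance gives about 1 in 20, or 3.5. *Supt6*-KO mouse 4 accounted for 6 of them. Its levels were 7578 CPM of *Krt6a* (group median 1323), 6183 CPM of *Krt6b* (median 1270.3) and 7999.8 CPM of *Krt16* (median 2493). The 4 stress keratins took 44.0% of its keratin counts (median 12.2%), and its log2 ratio of *Krt17* to *Krt5* was -1.77 (median -2.72). Its suprabasal keratinocyte markers summed to 20565 CPM (median 40630.7). Control mouse 3 had a log2 ratio of *Krt6a* to *Krt17* of -1.67 (median -1.14), and *Supt6*-KO mouse 2 had trunk homeobox markers summing to 5.80 CPM (median 5.13), almost all of it *Hoxd8*.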

How the results depend on the processing

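*Krt6a*, *Krt6b* and *Krt16* kept their direction and stayed past the threshold under each alternative run, with log2 fold changes of 2.62 to 5.49, 5.49 to 8.48 and 3.92 to 7.56. The lowest value for *Krt6a* came with library totals and without *Supt6*-KO mouse 4, a setting chosen after seeing the data, 5.49 is *Krt6a* and *Krt6b* summed, and 3.92 is *Krt16* summed with *Krt17* and *Krt42*. *Krt17* did not hold. It lost the threshold with library totals (0.46) and with a replicate block (0.69, adjusted p = 0.126, edgeR), its values with 1 mouse left out ran from 0.37 to 1.26, and with library totals without *Supt6*-KO mouse 4 it reversed to -0.39. It also fell short with control mouse 2, 3, 4 or 5 left out (adjusted p of 0.0532 to 0.0637, edgeR). With upper-quartile scaling (0.95) or at least 10 counts in every library (0.99) it passed the p threshold but not the 2-fold one. Library totals gave 1470 genes called higher and 6802 lower, against 3427 and 4088 with TMM. No pairing of mice by number is stated. The r of deviations was -0.011 to 0.243 over the 4 pairs of the same number (mean 0.128), against a mean of -0.025 over the 16 other pairs. So few pairs cannot settle whether the mice were paired. With the replicate block 3134 genes were called higher and 3834 lower. As a block of 4 pairs the ratios cannot go below an exact p of 0.125, so 0 of 14 passed; *Krt17*/*Krt14* passed without control mouse 1 (0.43). Per base of transcript the stress keratin share in controls was 1.28%. Without mouse 4, 6983 of the 7515 genes called with all mice were called again.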
